A study of Homo sapiens with 16 samples.

Results

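The genes described here moved in one direction in every cell line of the series when the cells were given 5-aza-2'-deoxycytidine and trichostatin A. Gene expression was read on 16 Affymetrix HG-U133A arrays, which is every array of the series, as treated and untreated cells of 8 human lymphoid lines. A gene belongs to the shared response when the treated minus untreated difference of its log2 value had the same sign in all 8 lines. That held for 3491 of the 11963 genes with a probe set of their own. A limma fit over all genes called all but 123 of these at an adjusted p below the threshold of 0.05. The 3368 called genes are 28.2% of all genes tested. Because the sign in each line chose these genes, the counts describe the response, and an adjusted p printed beside such a gene is its value in the fit over all genes and no further evidence.

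Treated cells were kept with 5-aza-2'-deoxycytidine (1 µM) over 6 days and received trichostatin A (625 nM) as well in the final 24 h, while untreated cells of the same line received neither. In each group there were 4 lines of anaplastic large cell lymphoma (ALCL), named Karpas 299, SU-DHL-1, FE-PD and JB6, and 4 T-cell leukaemia or lymphoma lines, named Jurkat, Molt-4, CCRF-CEM and Molt-3. Each line was hybridised once per condition, so the 8 differences are replicates of the treatment over lines, and the spread between cultures of a line was not measured. Molt-3 and Molt-4 are known to derive from the same patient, and their changes correlated at 0.931 across genes, against at most 0.741 for any other pair of lines. The tests below count them as separate lines, so their p-values may be too small. With Molt-3 and Molt-4 averaged the limma fit called 4869 genes, against 6114 with all 8 lines. Drugs were given together in every treated culture, so the response to either alone cannot be told apart from the other. Since the arrays read bulk RNA on a log scale set within the experiment, fewer cells of a type and less RNA per cell cannot be told apart either.

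5-Aza-2'-deoxycytidine is built into DNA during replication, where it traps DNA methyltransferases, so that methylation of CG dinucleotides is lost as cells divide. Trichostatin A blocks zinc-dependent histone deacetylases, so that acetylated histones build up. Genes silenced by promoter methylation, among them the cancer-testis antigens of the germ line, are known to be switched on by demethylating drugs, while metallothioneins, linker histones and the cell cycle inhibitor CDKN1A are known to respond to deacetylase inhibitors. Both drugs are also known to slow division.

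The 7 promoter sequences that follow belong to chosen genes of the shared response and show how far their CG content differed. They are the 250 bases before the annotated start, 5′ to 3′ on the strand of the gene, from RefSeq on GRCh38.p14, and capitals mark CG dinucleotides except in MT1X. TKTL1 had the largest shared rise by the probe set used for each gene, and its promoter (chrX:154295545-154295794, plus strand) held 13 CG. MAGEA6 (chrX:152769690-152769939, minus strand), a cancer-testis antigen gene, held 15, and NPTX2 (chr7:98617035-98617284, plus strand), a neuronal pentraxin gene, held 34. DHRS2 (chr14:23629865-23630114, plus strand) had the second largest rise by the same rule and no CG at all in this stretch. In the promoter of the metallothionein gene MT1X (chr16:56682220-56682469, plus strand) capitals mark metal response element cores, TGCGCNC or TGCACNC on either strand. CCNA2 (chr4:121823884-121824133, minus strand), a cyclin gene, and PSMB10 (chr16:67936851-67937100, minus strand), an immunoproteasome gene, are among the genes that fell, and held 20 and 5 CG. PSMB10 is not typical of them: only 6.14% of the promoters of shared falls held fewer than 10 CG in the 300-base window used below.
TKTL1: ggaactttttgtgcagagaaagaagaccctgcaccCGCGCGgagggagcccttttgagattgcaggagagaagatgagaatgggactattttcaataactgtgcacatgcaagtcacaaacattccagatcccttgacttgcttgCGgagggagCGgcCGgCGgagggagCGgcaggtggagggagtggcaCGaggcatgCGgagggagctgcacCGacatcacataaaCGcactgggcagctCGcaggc
DHRS2: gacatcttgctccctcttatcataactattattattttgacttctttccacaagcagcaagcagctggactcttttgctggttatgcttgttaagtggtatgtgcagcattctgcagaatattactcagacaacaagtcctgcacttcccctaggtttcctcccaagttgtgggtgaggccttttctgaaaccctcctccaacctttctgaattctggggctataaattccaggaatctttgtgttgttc
MAGEA6: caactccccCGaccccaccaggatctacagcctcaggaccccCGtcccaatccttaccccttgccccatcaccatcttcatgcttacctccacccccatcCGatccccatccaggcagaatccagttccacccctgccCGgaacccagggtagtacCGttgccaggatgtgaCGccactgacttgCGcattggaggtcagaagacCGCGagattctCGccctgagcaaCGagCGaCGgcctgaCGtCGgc
NPTX2: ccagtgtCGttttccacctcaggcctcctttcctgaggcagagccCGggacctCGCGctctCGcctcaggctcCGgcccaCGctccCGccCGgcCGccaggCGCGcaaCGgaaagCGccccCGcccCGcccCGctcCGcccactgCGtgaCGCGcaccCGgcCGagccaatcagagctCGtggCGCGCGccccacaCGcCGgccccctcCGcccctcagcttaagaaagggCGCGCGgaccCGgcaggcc
MT1X: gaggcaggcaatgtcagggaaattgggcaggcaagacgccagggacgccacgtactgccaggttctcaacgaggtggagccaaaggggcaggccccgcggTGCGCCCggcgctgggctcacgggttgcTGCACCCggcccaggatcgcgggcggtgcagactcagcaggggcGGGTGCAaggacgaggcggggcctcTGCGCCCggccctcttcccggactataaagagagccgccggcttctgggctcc
CCNA2: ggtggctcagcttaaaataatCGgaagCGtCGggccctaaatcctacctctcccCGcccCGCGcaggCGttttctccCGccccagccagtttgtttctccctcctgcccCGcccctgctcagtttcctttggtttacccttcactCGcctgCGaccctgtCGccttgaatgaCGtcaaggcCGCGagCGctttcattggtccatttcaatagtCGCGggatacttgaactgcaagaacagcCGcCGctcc
PSMB10: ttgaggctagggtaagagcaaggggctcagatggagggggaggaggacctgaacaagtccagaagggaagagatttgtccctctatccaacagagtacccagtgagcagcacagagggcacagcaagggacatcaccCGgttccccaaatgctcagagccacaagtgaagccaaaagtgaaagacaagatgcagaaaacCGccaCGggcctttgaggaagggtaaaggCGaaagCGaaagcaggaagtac

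The untreated arrays carried the markers of their labels: TNFRSF8 (CD30), the defining antigen of ALCL, lay between 11 and 12.05 in ALCL lines, against 7.34 to 8.26 in T-cell lines, and CD3E lay between 7.20 and 7.96 in ALCL lines, against 10.57 to 10.91 in T-cell lines. Several control measures moved with treatment. The 28S ribosomal RNA control was between 12.05 and 14.26 on the treated arrays of 5 lines, and at most 8.15 on those of the other 3 lines, Karpas 299, CCRF-CEM and Jurkat, against at most 7.62 on any untreated array. The SD of all values on an array was lower after treatment in 8 of 8 lines (mean difference -0.157 ± 0.0947, SD, n = 8; exact two-sided sign-flip permutation p = 0.00781, the smallest that 8 pairs can give). The 18 hybridisation spike probe sets averaged 0.64 higher on treated arrays (7 of 8 lines, exact permutation p = 0.0391). Signal at the 3′ end minus that at the 5′ end, a sign of RNA quality, was higher after treatment for GAPDH in 8 of 8 lines (mean 0.30, exact permutation p = 0.00781) and for ACTB in 7 of 8 (mean 0.60, exact permutation p = 0.0156). Scaling each array on those spikes moved the median change of all genes to -0.53, against 0.12 with the values as deposited, so every direction below is relative to the other genes on the array. With that scaling only 2.24% of the called genes were higher after treatment, against 56.5% with the values as deposited and 44.0% when each array was centred on its median. The part of these measures in the changes was not tested, beyond the values given with the results.

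After treatment 1821 genes were higher in all 8 lines (15.2% of those tested) and 1670 were lower in all 8 (14%). The numbers of genes by lines higher were lowest in the middle, with 782 genes higher in 3 lines and 783 higher in 2, and they were highest at 7 lines, with 2372 genes. Over all genes the fit called 6114 (51.1%), of which 3456 were higher (28.9%) and 2658 lower (22.2%). Of the genes higher in all 8 lines 1711 were called, which is 14.3% of all genes and is the set named shared rises below. Of those lower in all 8 lines 1657 were called, or 13.9% of all genes, and these are the shared falls. List counts below are read beside these shares of all genes: 28.9% called higher, 22.2% called lower, 14.3% shared rises and 13.9% shared falls. The 123 genes with 1 direction that were not called were mostly rises, 110 against 13 falls.

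**Figure D1:**
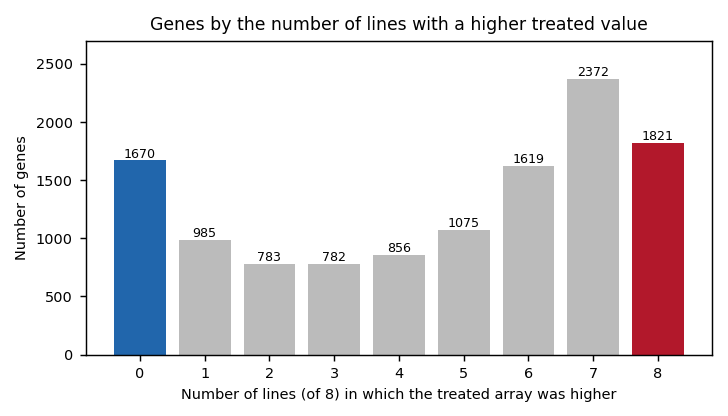
Number of genes (vertical axis) by the number of lines, of 8, in which the treated array was higher than the untreated one (horizontal axis). The blue bar marks the 1670 genes lower in every line and the red bar the 1821 genes higher in every line, and the tallest bar is that of 2372 genes higher in 7 lines.

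Shared falls were larger than shared rises. The median size of a shared fall was 0.92 on the log2 scale (1.89-fold), against 0.52 (1.43-fold) for a shared rise. At least 2-fold in the mean over lines were 727 of the falls and 209 of the rises, and at least 4-fold were 61 falls and 35 rises. When a change of at least 0.5 was asked of every line, 426 genes fell and 121 rose, and with at least 1 in every line 87 fell and 23 rose. Only 3 genes rose and 1 fell by at least 2 in every line. Rises and falls also sat on probe sets of different brightness: the median untreated value was 6.65 for the shared rises, 8.94 for the shared falls and 7.22 for all genes. Among the 2393 dimmest genes, by mean over the 16 arrays, 352 were shared rises and 48 shared falls, while among the 2393 brightest 205 were shared rises and 739 shared falls. Brightness of a probe set is not a measure of one gene's RNA against another's, and its part in these counts was not tested.

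Lines agreed to different degrees. The correlation of changes across genes between 2 lines had a median of 0.58 over 28 pairs and ran between 0.346 and 0.931, as a description, since genes are not independent replicates and untreated and treated arrays of a line share that line. FE-PD stood apart in the share of genes that were higher after treatment, 43.5%, against 56.4% to 60.2% in the other lines. Of the 3254 genes higher in the other 7 lines, 55.96% were also higher in FE-PD, where 43.46% of all genes were higher. For each other line that share was between 86.8% and 97.85%. Among genes lower in 7 lines the share lower in the line left out was between 84.73% in FE-PD and 98.29% in Molt-3. When Molt-3 or Molt-4 was left out, the other line of that patient helped to choose the genes. The shares of Molt-3 and Molt-4 are therefore not those of an unrelated line. Without FE-PD the called genes that moved 1 way in all remaining lines numbered 4928, against 3368 with it.

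Genes that moved 1 way in all 4 lines of a cell type were looked up in the other cell type. Of the 4755 genes higher in all 4 T-cell lines, 38.3% were higher in all 4 ALCL lines, against 21.37% of all genes. Of the 2891 genes lower in all 4 T-cell lines, 57.77% were lower in all 4 ALCL lines, against 18.93% of all genes. The opposite direction in all 4 ALCL lines was found for 59 and 77 of these genes. Looked up the other way, 71.2% of the 2557 genes higher in all 4 ALCL lines were higher in all 4 T-cell lines, against 39.8% of all genes, and 73.7% of the 2265 genes lower in all 4 ALCL lines were lower in all 4 T-cell lines, against 24.2% of all genes. A test of the ALCL effect minus the T-cell effect called 201 genes (1.68%), among them 14 shared rises and 23 shared falls, whose size therefore differed between the cell types although their direction did not. On simulated data that test called only 34.4% of 2-fold differences, so genes it did not call may still differ in size.

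TKTL1, which encodes a transketolase-like protein, had the largest shared rise by the probe set used for each gene. Its log2 value was 9.20 at the lowest, 10.49 at the median and 12.43 at the highest in treated lines, against 5.27, 5.83 and 7.41 in untreated lines. The groups did not overlap, and the rise was between 3.38 in SU-DHL-1 and 6.65 in FE-PD, with a mean of 4.77 (SE 0.281, adjusted p = 9.75e-06). A second TKTL1 probe set rose by 3.92 in the mean, in 8 of 8 lines. DHRS2, a short-chain dehydrogenase known to be induced by deacetylase inhibitors, had 10.12, 11.73 and 13.76 as lowest, median and highest value in treated lines, against 7.16, 7.29 and 8.47 in untreated lines. Its rise of 4.21 (SE 0.291, adjusted p = 1.64e-05) was of the same size in ALCL lines (4.19) and T-cell lines (4.22). A second, dimmer DHRS2 probe set rose by 5.33 in the mean, in 8 of 8 lines. That is more than either TKTL1 probe set, so the order of these genes depends on the probe set.

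The other 10 of the 12 largest shared rises fell into a few kinds. Histone genes were H1-2, a linker histone gene, at 3.67, and H2BC21, a core histone gene, at 3.21. Genes of the germ line were MAGEA6 at 3.40, MAGEB2 at 2.77, MAGEA12 at 2.68 and SSX1 at 2.66, all cancer-testis antigens, together with HSPA2, a testis-enriched heat shock protein gene, at 2.73. NPTX2, with a median of 8.61 in treated lines against 5.74 in untreated lines, and TUBB2A, a beta-tubulin gene, at 2.95, are best known from neurons. SPP1, which encodes osteopontin, had a mean of 2.87 that hid a difference between cell types: it rose by 4.24 to 5.74 in ALCL lines and by 0.54 to 0.98 in T-cell lines. That difference, 4.33, was called (adjusted p = 0.00027). In T-cell lines SPP1 values were low, 4.76 to 5.00 untreated and 5.35 to 5.88 treated. All of them lay below the untreated value of SU-DHL-1, 6.70.

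The 12 largest shared falls were CMAHP, NMI, PSMB10, MYB, PSMB8, STAG2, RCN1, RBM3, SPC25, IFI16, PTPRC and BAG2. A second, dimmer RBM3 probe set fell by only 0.59 in the mean and was higher in 1 line. CMAHP, the human relic of an enzyme gene for sialic acid, fell by 3.17 in the mean, the most of all (SE 0.292, adjusted p = 4.29e-05), with lowest, median and highest values of 5.44, 5.94 and 7.01 in treated lines, against 7.02, 9.79 and 10.56 in untreated lines. MYB, the transcription factor of haematopoietic progenitors, stood at 7.15, 8.07 and 9.07 in treated lines, against 8.17, 11.27 and 12.17 in untreated lines. It fell by 3.01 in the mean (SE 0.276), least in SU-DHL-1 (1.02, where its untreated value was the lowest of all) and by 2.35 to 3.77 in the other lines. STAG2, a cohesin subunit, fell by 2.69, by between 1.55 and 3.29 over the lines, and its treated values of 6.43 to 7.86 lay below its untreated values of 9.16 to 10.27. IFI16, an interferon-inducible DNA sensor, fell in every line but by 3.87 in T-cell lines and 1.29 in ALCL lines (difference 2.59, adjusted p = 0.0028).

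**Figure D2:**
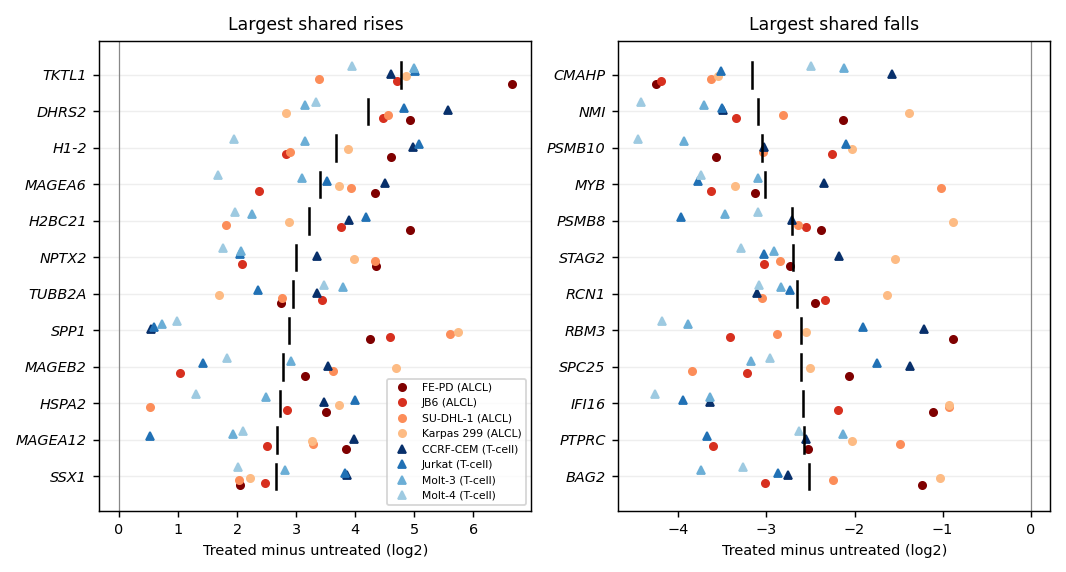
Treated minus untreated log2 difference of each line (horizontal axis) for the 12 largest shared rises (left) and falls (right), with circles for ALCL lines, triangles for T-cell lines and a bar at the mean of 8 lines. TKTL1 lay between 3.38 and 6.65, while SPP1 split into ALCL lines at 4.24 and above and T-cell lines at 0.98 and below.

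Among changes of at least 1 on the log2 scale, the 6 falls that were most even over lines were those of PTPRCAP, NME4, ANP32B, ARHGAP4, DOCK2 and AVEN. PTPRCAP, which encodes a protein bound to the CD45 phosphatase, had the smallest SD relative to its mean: treated lines held 6.93, 7.30 and 7.90 as lowest, median and highest, against 9.41, 9.67 and 10.36 in untreated lines. It fell by 2.45 in the mean (SE 0.0997, adjusted p = 1.48e-06), with single lines between -2.80 and -1.92. ANP32B, a histone chaperone, fell by 2.32 (-2.73 to -1.96 over the lines), NME4, a mitochondrial nucleoside diphosphate kinase, by 2.18 (-2.70 to -1.92), and DOCK2, a Rac activator of blood cells, by 2.14 (-2.61 to -1.71). AVEN, an inhibitor of apoptosis, fell by 1.37 and ARHGAP4 by 1.03. CD45 itself, PTPRC, fell by 2.58, between 1.48 and 3.68 over the lines. The 6 most even rises were those of TKTL1, NDRG4, MEST, GCDH, POR and KIAA0513. NDRG4, a gene best known from brain and heart, had 7.54, 8.03 and 8.57 in treated lines, against 6.45, 6.68 and 6.90 in untreated lines. It rose by 1.35 (SE 0.099), while MEST, an imprinted gene, rose by 1.28 and POR, the electron donor of the cytochrome P450 enzymes, by 1.21.

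At the edge of the definition, the called rises with the smallest change in any line were ABCC9 and CXCL2, which were higher by less than 0.01 in FE-PD and by 0.59 and 0.56 in the mean of all lines, and with the spike scaling their means turned to -0.06 and -0.08. The falls were TXLNG (mean -0.49) and UBAP2L (mean -0.67), each lower by less than 0.01 in 1 line. The other UBAP2L probe sets had means of -0.99, 0.05 and 0.01. Missing the definition by 1 line with the largest means were AGT (2.54) and DUSP1 (1.65) among rises and MYC (-2.80) and BID (-2.05) among falls. A second, dimmer DUSP1 probe set was higher in all 8 lines, with a mean of 0.52. MYC, the growth-promoting transcription factor, was lower by 1.53 to 4.34 in 7 lines and higher by 0.03 in Karpas 299.

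The enzymes that the drugs bind did not share a direction. DNMT1, the maintenance DNA methyltransferase, had 6.67, 8.33 and 9.58 in treated lines, against 8.93, 9.40 and 9.65 in untreated lines. It was lower in 8 of 8 lines with a mean of -1.06 (SE 0.213, adjusted p = 0.00282), by 2.27 in JB6 and by only 0.08 in CCRF-CEM. DNMT3B, a de novo methyltransferase, was higher by 0.54 (adjusted p = 0.0177), in 7 of 8 lines, though its mean was -0.10 with the spike scaling. DNMT3A did not pass the test, with a mean of -0.23 and 3 lines higher. Of 14 measured writers and readers of DNA methylation, 6 were called lower and 2 higher (backgrounds 22.2% and 28.9%), and 5 fell in all lines. HELLS, a chromatin remodeller needed for methylation, was among these with a mean of -0.84.

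HDAC2, a class I deacetylase, was lower in 8 of 8 lines with a mean of -0.73 (adjusted p = 0.0089), HDAC1 was lower in 7 of 8 with -0.38 (adjusted p = 0.0256) and HDAC3 was higher in 7 of 8 with 0.46 (adjusted p = 0.0151), or -0.19 with the spike scaling. Of 21 measured deacetylases and members of their complexes, 9 were called lower and 5 higher (22.2% and 28.9% of all genes). There were 7 shared falls and 3 shared rises (13.9% and 14.3% of all genes), so the rises were not above the share of all genes. MTA1, a subunit of the NuRD complex, was among the falls, with 6.18 to 7.76 in treated lines against 8.38 to 9.39 in untreated lines (mean -2.14). TBL1XR1, a subunit of the NCoR and SMRT corepressor complexes, fell by 2.04. SUV39H1 and EHMT2, both histone H3 lysine 9 methyltransferases, fell by 1.08 and 0.77, although a second EHMT2 probe set was at 0.01.

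Cancer-testis antigen genes rose in nearly all cases. Of 21 measured, 19 were called higher and none lower, and 15 were shared rises. The list counts TKTL1. The median change of the list was 0.74, against 0.12 for all genes, and lay between 0.62 and 1.09 in single lines. With the spike scaling it was 0.09, against -0.53 for all genes. MAGEA6 had 6.47, 8.31 and 10.08 in treated lines, against 4.48, 4.62 and 6.55 in untreated lines, where Jurkat held the highest value in both conditions. SSX1 had 8.23, 8.61 and 10.16 in treated lines, against 5.76, 6.31 and 6.60 in untreated lines, with no overlap. CTAG2 rose by 1.76. Probe sets of the MAGEA, SSX and CTAG families can bind transcripts of near-identical copies, so which member gave the signal is uncertain, and a second probe set of SSX1 and of CTAG2 rose by only 0.36 and 0.26. Of 25 measured germ-cell genes, 14 were called higher and 8 were shared rises (median 0.37, and -0.27 with the spike scaling). Among them DAZL, a germ-cell RNA-binding protein gene, had 4.66, 6.96 and 9.50 in treated lines, against 4.37, 4.47 and 4.66 in untreated lines, and rose by 0.29 in JB6 and by 4.84 in CCRF-CEM.

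Histone genes rose as well. Of 35 measured core histone genes 23 were called higher and 3 lower, with 17 shared rises and 3 shared falls, and of 7 linker histone genes 5 were called higher and 4 were shared rises. The median change was 0.52 for core histones and 0.38 for linker histones, and -0.12 and -0.26 with the spike scaling. H1-2 had 8.70, 11.08 and 12.49 in treated lines, against 6.71, 7.12 and 8.23 in untreated lines, without overlap. H2BC12 rose by 2.65, H2BC6 by 2.03 and H4C8 by 1.95. The histone genes are close copies of each other too, so members of the family cannot be told apart with certainty.

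Metallothioneins, small metal-binding proteins, had a median of 1.60, the largest of the lists with the values as deposited, and 0.96 with the spike scaling. Of 9 measured, 8 were called higher and 7 were shared rises. MT1X had 10.71, 12.56 and 13.69 in treated lines, against 8.93, 10.33 and 11.13 in untreated lines. It rose by 2.06 to 3.04 in 6 lines but by 0.80 in Molt-3 and 0.48 in Molt-4, and MT2A (mean 1.79) and MT1H (mean 1.84) were likewise lowest in Molt-4, at 0.29 and 0.51. These genes share long stretches of sequence, and their probe sets are not independent.

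Of 33 genes known to rise under deacetylase inhibitors, a list that also holds TKTL1, DHRS2 and H1-2, 26 were called higher, none lower, and 23 were shared rises. The list was put together with these results known and is not independent evidence of its direction. Its median was 1.32, and 0.67 with the spike scaling. Immediate early genes, the first to be transcribed after a stimulus, were called higher in 17 of 32 cases and lower in 3, with 8 shared rises and a median of 0.42, or -0.23 with the spike scaling. FOS had 6.86, 8.23 and 10.93 in treated lines, against 5.65, 6.03 and 6.44 in untreated lines, and IER3 rose by 2.32 and EGR1 by 1.23.

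Lysosome and autophagy genes had a median of 0.52, and -0.13 with the spike scaling, with 23 of 39 called higher, 5 lower and 17 shared rises. NEU1, the lysosomal sialidase, stood at 9.01, 10.27 and 11.14 in treated lines, against 7.36, 7.78 and 8.42 in untreated lines. Its rise of 2.25 (SE 0.187, adjusted p = 3.11e-05) was between 1.39 and 3.49 over the lines. The lysosomal protease CTSB rose by 1.00, while the thioesterase PPT1 fell by 0.95 in the mean of 8 lines. Of 48 neuronal genes 28 were called higher and none lower, with 17 shared rises and a median of 0.30, or -0.34 with the spike scaling. UCHL1, a neuronal ubiquitin hydrolase, rose by 1.30, SYT11, a synaptotagmin, by 1.32 and ATP1B1, a subunit of the sodium pump, by 1.42.

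Markers of cell types that the cultures should not hold are given beside these lists, against the 28.9% of all genes called higher, the 22.2% called lower and the median of 0.12. Of 31 mesenchymal and matrix markers 14 were called higher and 2 lower, with a median of 0.19, and the mean log2 value of the list lay between 6.54 and 6.83 in treated lines and between 6.21 and 6.71 in untreated lines. Of 22 epithelial markers 9 were called higher (median 0.25), of 23 myeloid markers 5 (median 0.17), of 16 B-cell markers 6 with 2 lower (median 0.14) and of 15 NK-cell markers 7 with 1 lower (median 0.31). Of 17 erythroid and megakaryocyte markers 8 were called higher and none lower (median 0.24). The medians of these marker lists were between -0.33 and -0.50 with the spike scaling, against -0.53 for all genes. RMA values have no zero and no detection calls were used here, so it is not stated which of these markers were above background.

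**Figure D3:**
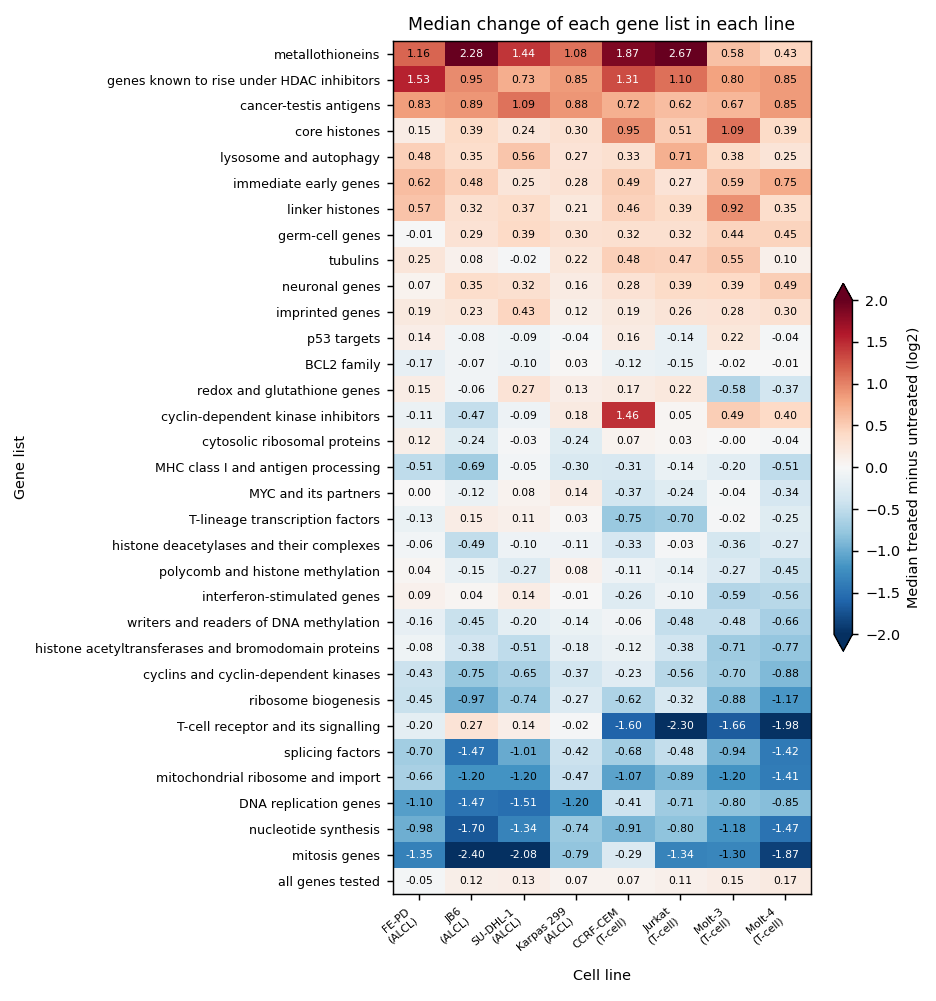
Median treated minus untreated log2 difference of each gene list (rows) in each line (columns, ALCL lines left), with the value printed in each cell and colour limits at -2 and 2. Cancer-testis antigens were between 0.62 and 1.09 in every line and mitosis genes between -2.40 and -0.29, with the values as deposited. With the spike scaling the medians over 8 lines of core histones, linker histones, lysosome, neuronal and germ-cell genes turned below 0. Those of tubulins, immediate early genes, imprinted genes and p53 targets did so too. With the SD scaling those of cytosolic ribosomal proteins, MYC and its partners and the BCL2 family turned above 0. Those of MHC class I genes and of redox genes turned above 0 with both the SD and the quantile scaling.

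Genes of mitosis fell almost without exception. Of 40 measured, 37 were called lower, none higher, and 28 were shared falls, with a median of -1.51 and line medians between -2.40 in JB6 and -0.29 in CCRF-CEM. AURKB, the kinase of the chromosomal passenger complex, had 6.03, 6.35 and 8.56 in treated lines, against 8.30, 9.28 and 9.42 in untreated lines. It fell by 2.38 in the mean (SE 0.238, adjusted p = 6.35e-05), and the treated value above the lowest untreated one was that of CCRF-CEM. SMC2, a condensin subunit, fell by 1.83, and SPC25, a kinetochore protein, by 2.61. The mitosis list fell by 1.83 at the median in the 5 lines with a 28S rise and by 0.86 in the 3 lines without, and cancer-testis antigens had medians of 0.77 and 0.69 in the same sets of lines. Medians also differed by over 1.5 times for other lists, among them splicing factors (-1.14 with the 28S rise and -0.57 without), ribosome biogenesis (-0.87 with and -0.46 without), metallothioneins (1.17 with and 2.05 without), core histones (0.36 with and 0.72 without), tubulins (0.17 with and 0.65 without), imprinted genes (0.40 with and 0.20 without) and the T-cell receptor list (-0.73 with and -1.48 without). The 28S rise and the line cannot be told apart in these values. In those 3 lines alone the fit called 114 genes.

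DNA replication genes were called lower in 37 of 41 cases and higher in 1, with 27 shared falls and a median of -1.02. POLD3, a subunit of DNA polymerase delta, fell by 1.20 (0.98 to 1.55 over the lines) and POLE2, of polymerase epsilon, by 1.62. In this list 6 genes had an effect that differed between cell types, and the median was -1.20 in ALCL lines and -0.77 in T-cell lines. Nucleotide synthesis genes were called lower in 26 of 30 cases, with 22 shared falls and none higher. RRM1, the large subunit of ribonucleotide reductase, had 7.12, 8.31 and 9.64 in treated lines, against 9.94, 10.43 and 10.86 in untreated lines, with no overlap (mean -1.93). CTPS1, the CTP synthase, fell by 1.77 and ATIC, of purine synthesis, by 2.04.

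Cyclins and cyclin-dependent kinases were called lower in 20 of 32 cases, with 15 shared falls and 1 shared rise. CDK4, the kinase of the G1 phase, was among the most even, with 9.10, 9.73 and 9.98 in treated lines, against 10.97, 11.13 and 11.44 in untreated lines (mean -1.49, SE 0.111, adjusted p = 2.06e-05). CCNA2, whose promoter is printed above, had 6.53, 7.50 and 8.96 in treated lines, against 8.75, 9.45 and 10.40 in untreated lines. Of 7 inhibitors of these kinases 2 rose and 1 fell in all lines, beside 14.3% and 13.9% of all genes. CDKN1A, the inhibitor p21, had 8.45, 9.72 and 11.51 in treated lines, against 7.10, 7.91 and 10.79 in untreated lines. The groups overlapped, with FE-PD and SU-DHL-1 highest among untreated lines, but the value was higher in each line, by 0.69 to 2.55 (mean 1.49, SE 0.201, adjusted p = 0.000302). CDKN1C, p57, rose by 1.61, though 1 of its other probe sets was at -0.01, and CDKN1B, p27, fell by 1.45. CDKN2A, which encodes p16 and ARF, was not called over all lines (-0.36) and moved by -1.13 in ALCL lines and 0.41 in T-cell lines, a difference of -1.53 (adjusted p = 0.034). Its other probe sets had means of 0.24 and -0.63. The former was higher in 7 lines and at -0.17 in its lowest line, so it did not share the fall in ALCL lines.

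**Figure D4:**
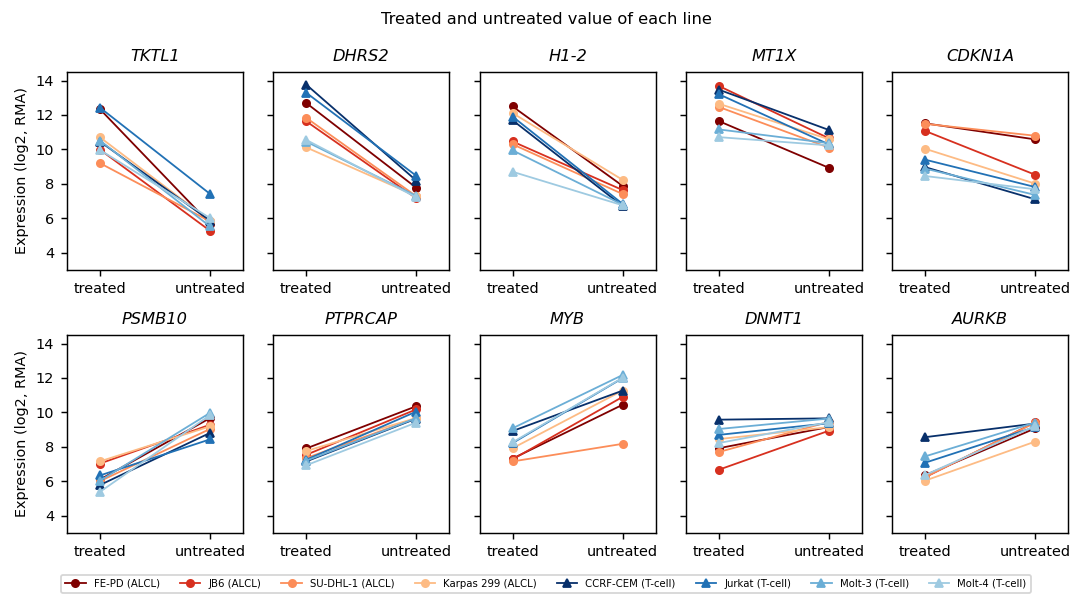
Log2 RMA value (vertical axis) of 10 genes in the treated (left) and untreated (right) cells of each line, joined by line, with circles for ALCL and triangles for T-cell lines. The upper row holds genes that rose in each line and the lower row genes that fell in each line, and TKTL1, DHRS2 and PTPRCAP had no overlap between treated and untreated values.

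Splicing factors were called lower in 44 of 47 cases, with none higher, 34 shared falls and a median of -0.96. U2AF2, which recognises the polypyrimidine tract at the 3′ splice site, had 6.49 to 7.73 in treated lines, against 8.04 to 9.65 in untreated lines, although a second U2AF2 probe set was higher by 0.30. Mitochondrial ribosome and import genes were called lower in 40 of 48 cases, with none higher, 33 shared falls and a median of -1.01. MRPL9 fell by 2.25 (-2.98 to -1.40 over the lines), MRPS15 by 1.82 and MRPL34 by 1.71. Ribosome biogenesis genes were called lower in 21 of 30 cases and higher in 1, with 17 shared falls and a median of -0.77, among them NPM1, the nucleolar phosphoprotein, at -1.03. The proteins of the cytosolic ribosome moved less: 8 of 40 were called lower and 1 higher, and 3 were shared falls. Among all genes 22.2% were called lower and 28.9% higher, and 13.9% were shared falls. The median of these ribosomal proteins, -0.06, turned to 0.48 with the SD scaling, which brings all arrays to the same SD.

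Antigen processing was split. Of 15 measured genes of MHC class I and antigen processing 7 were shared falls and none was called higher, but the median was -0.10. It was -0.53 with the mean of each gene's probe sets, and turned to 0.23 with the SD scaling and 0.21 with the quantile scaling. Those that fell included all 3 immunoproteasome subunits, the inducible catalytic subunits that cut peptides for MHC class I. PSMB10 had 5.38, 6.06 and 7.15 in treated lines, against 8.43, 9.23 and 9.97 in untreated lines, and fell by 3.05 (SE 0.267, adjusted p = 3.59e-05). PSMB8 fell by 2.71 and PSMB9 by 1.73. TAP1, the peptide transporter, fell by 1.07. Of 36 interferon-stimulated genes 11 were called lower and 5 higher (22.2% and 28.9% of all genes), with 7 shared falls and 4 shared rises (13.9% and 14.3% of all genes). IFITM1 and IFITM2 fell by 2.13 and 1.71, and OASL rose by 0.87. NMI, a binding partner of STAT proteins, fell by 3.10, with 5.76, 6.64 and 8.77 in treated lines, against 9.45, 10.13 and 10.38 in untreated lines.

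The T-cell receptor pathway shows where the response was not shared. Of 23 measured genes 12 were called lower over all lines, but only 1 was a shared fall, and 11 had effects that differed between cell types. The median was 0.06 in ALCL lines and -1.76 in T-cell lines. LCK, the kinase of the receptor, was lower by 3.38 in T-cell lines and higher by 0.50 in ALCL lines, where its untreated value was low (5.71 to 6.29). A second LCK probe set had a mean of -1.60 and was higher in only 1 of 8 lines, by 0.02, so it did not share the rise in ALCL lines. CD3E moved by -1.68 in T-cell lines and 0.25 in ALCL lines. By the probe set used IKZF1, the lymphoid transcription factor Ikaros, did fall in all 8 lines, by 1.77 in the mean and by 0.18 in Karpas 299. A second IKZF1 probe set fell by 1.13 in the mean but was higher by 0.12 in 1 line. ID2 and LGALS1 also missed the shared set: ID2 was higher by 3.59 to 4.93 in the 4 T-cell lines and in FE-PD and within 0.15 of 0 in the other 3, and LGALS1 was higher by 2.92 in T-cell lines against 0.12 in ALCL lines.

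RefSeq promoters of 300 bases (250 before and 50 after the start) were matched for 9546 genes. CG count differed between the sets as a description. Below 10 CG lay 27.8% of the promoters of shared rises, 6.14% of those of shared falls and 21.5% of all. Shared falls made up 2.69% of genes with 0 to 4 CG and 20.1% of genes with 20 to 29 CG, and shared rises made up 18.1% and 11.2% of the same classes. The median untreated value climbed with CG over these classes as well, with 6.13 at 0 to 4 CG and 7.87 at 20 to 29 CG, and the part of brightness in the relation was not tested. For the shared rises of at least 2-fold the picture was another: their median was 26.5 CG, against 24 for all genes, and 13.4% lay below 10 CG.

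**Figure D5:**
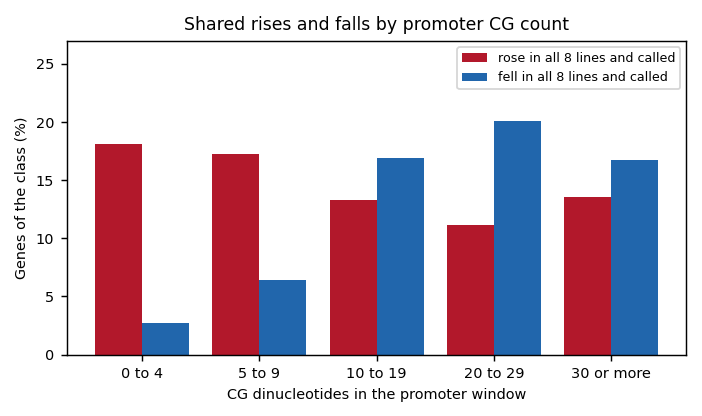
Share of genes (vertical axis, %) that were shared rises (red) or shared falls (blue) by the number of CG dinucleotides in the 300-base promoter (horizontal axis). Shared falls were 2.69% of genes at 0 to 4 CG and 20.1% at 20 to 29, while shared rises were 18.1% and 11.2%.

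Short motifs were counted on both strands of the same promoters. TATAAA, the TATA box core, was in 18.9% of promoters of rises of at least 2-fold, against 8.32% of all, and CCAAT, the NF-Y box, in 54.3%, against 37.3% of all. Histone promoters carry both: among core histone genes CCAAT was in 81.8% and TATAAA in 63.6%. CCAAT was also in 72.7% of promoters of mitosis genes, which fell, so that the same letters stood in promoters of genes that moved in opposite directions. TTTCCCGC, an E2F core, was in 25% of promoters of replication genes, against 2.37% of all. The metal response core TGCACNC was in all 4 metallothionein promoters with a window, against 11.8% of all promoters, and the printed MT1X promoter holds 4 cores of either spelling. A match is a description of the letters and was not tied to binding of any factor.

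The direction was also read from probe sets that the definition had not used. Of the shared rises, 599 had a second probe set, which was higher in the mean of the lines in 95.2% and higher in all 8 lines in 39.7%. Of the shared falls, 652 had one, which was lower in the mean in 85.1% and lower in all 8 lines in 61.4%. Among all 4310 genes with a second probe set, 57.1% of these were higher in the mean, 12.3% were higher in all 8 lines and 13.8% lower in all 8. Second probe sets were read on the same arrays, so they show agreement between probes and not between samples.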

How the data were processed

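The labels assign each of the 16 arrays to a cell line and to treated or untreated cells. The deposited values are log2 expression summaries on HG-U133A arrays, for which the submitters' processing notes name RMA and R 2.10.1; whether all arrays were normalized as 1 set is not given in the sources used here. They ran from 3.36 to 14.4 over 22283 probe sets. The platform annotation, which can be old, gave 1 gene symbol to 19065 of them, several to 1043 and none to 2107, and 68 were controls. Each of 11963 genes was represented by its probe set of highest mean; 11954 genes were found in the RefSeq table by gene ID. XIST and Y-linked genes are not reported.

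The treatment effect came from lmFit and eBayes of limma 3.58.1, run in R 4.3.3 on all 16 arrays with the line as a block (7 residual degrees of freedom), two-sided, with Benjamini-Hochberg adjustment over all genes tested and a threshold of 0.05. The difference between cell types came from a fit with an effect in each type. "Rose", "fell" and "called" refer to these tests, and changes are treated minus untreated on the log2 scale, given with the standard error of the fit. Named genes were the 12 largest rises and 12 largest falls in all 8 lines, the 6 most even in each direction with a mean change of at least 1, up to 4 members of each list with the smallest adjusted p, a fixed set of drug targets and known responders, and genes just inside and outside the definition. Members and lists were chosen with earlier results of these data known, and lists overlap.

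Pairing by line was checked by correlating the deviations of treated and untreated arrays from their group means (r between 0.33 and 0.643 within a line); for Molt-3 it was 0.414, against 0.399 with Molt-4. The number of arrays limits the precision. On data simulated for the effect over all 8 lines with 200 changed genes among 11963, 87.4% of 2-fold and 97.6% of 4-fold changes were called, and 5.54% of the calls were unchanged genes. With differences between the cell types added to other genes, the test of the difference called 34.4% of 2-fold and 83.4% of 4-fold differences. Alternatives were other scalings between arrays, a filter on dim genes, other probe set rules, other blocks and leaving out lines; averaging Molt-3 and Molt-4 was added after seeing the data.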

Additional observations from a re-analysis of the deposited data

Results flagged for a closer look

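Among 136 genes followed through all settings and 5 array measures, 5 of 141 sets of 8 changes held a line far from the others by Dixon's criterion, where chance gives about 1 in 20. NDRG4 rose by 1.91 in CCRF-CEM, with the next line at 1.47. In Karpas 299 the change was -0.42 for MBD3, a NuRD subunit, -0.48 for SRSF4, a splicing factor, and -0.18 for IKZF1, each the smallest fall of the 8 lines. A second MBD3 probe set was higher by 0.42 in the mean of the lines. TAP1 fell by 1.75 in FE-PD, the largest fall for that gene, with the next line at -1.16.

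The treatment effect differed between ALCL and T-cell lines by the test of the difference in 7 of 136 genes, given here as ALCL minus T-cell effect. Larger in ALCL lines, or less negative there, were AGT, the angiotensinogen gene (4.61), SPP1 (4.33), LCK (3.88), IFI16 (2.59) and CD3E (1.93). Lower in ALCL lines were LGALS1 (-2.80) and, by the probe set used, CDKN2A (-1.53). Of these, SPP1 and IFI16 meet the definition of the shared response, SPP1 with low values in T-cell lines.

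The 28S ribosomal RNA control, which enters no comparison of genes, reached 14.26 on the treated Molt-3 array, against a highest untreated value of 7.62 over all lines.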

How the results depend on the processing

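Over all 8 lines 6114 genes were called; this count was 4031 without the 40% dimmest genes, 1720 in ALCL lines alone and 114 in the 3 lines without a 28S rise, each with fewer genes or lines, and 10717 with each probe set by itself, which tests more features. Called genes moving 1 way in every line, 3368 with the values as deposited, numbered 1873 with the spike scaling (23 higher and 1850 lower), 1713 in ALCL lines alone, 5354 in T-cell lines alone, 114 in the 3 lines without a 28S rise, 5854 with each probe set by itself, 547 when at least 0.5 was asked of every line and 110 at 1. With the median scaling they were 1246 rises and 1909 falls. Leaving out each line gave 4684 to 6713 called genes and 3192 to 4928 moving 1 way, the highest without FE-PD. Effects differing between cell types, 201 in all, fell to 64 with the spike scaling and 74 with Molt-3 and Molt-4 averaged, and to between 67 and 195 without 1 line (67 without Molt-3, 88 without Molt-4). Without the replicate block, which treats the pairing by line as absent, 4601 genes were called and 62 differed between types, and 11 of 136 genes lost their call. The causes of these shifts were not tested.

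Of these 136 genes, at most 3 lost their call on leaving out any line and none with the median scaling. With the spike scaling 17 lost their call in the same direction, and a further 4 lost it with means that turned: DNMT3B (-0.10), HDAC3 (-0.19), ABCC9 (-0.055) and CXCL2 (-0.080). CDKN2A turned in T-cell lines alone (0.41, adjusted p = 0.0252). In the 3 lines without a 28S rise 105 lost their call and none turned.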

Other observations

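Imprinted genes are expressed from the copy of 1 parent. They were called higher in 7 of 19 cases and lower in 3, beside 28.9% and 22.2% of all genes. All 7 rises were shared by the 8 lines, beside 14.3% of all genes (median 0.27, and -0.38 with the spike scaling). PEG10, a retrotransposon-derived gene, rose by 1.61, by between 0.61 and 2.56 over the lines. Tubulin genes moved both ways: of 15 measured, 7 were called higher and 3 lower, beside 28.9% and 22.2% of all genes. The 6 shared rises and 2 shared falls stand beside 14.3% and 13.9% of all genes, so the falls are near that share. The median of the list was 0.35, and -0.29 with the spike scaling. TUBB4A rose by 1.50, while TUBB and TUBA1B, whose untreated values were between 12.95 and 13.72 and between 13.84 and 14.33, fell by 1.28 and 1.01.

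Of 19 measured BCL2 family genes 5 were called lower and 3 higher, with 3 shared falls and 1 shared rise, beside 22.2%, 28.9%, 13.9% and 14.3% of all genes, so the falls are near the share of all genes. BAX, which promotes death, fell by 1.63 and BCL2L1, which opposes it, by 0.98. Of 24 targets of p53, 7 were called higher and 6 lower. Their median was 0.12, and -0.53 with the spike scaling, each equal to that of all genes to 2 decimals. Of 30 glutathione and redox genes 11 were called higher and 9 lower, also beside 28.9% and 22.2% of all genes. The median of this list, -0.01, turned to 0.27 with the quantile scaling and 0.15 with the SD scaling. GSTO1 fell by 2.25 and GSTA4 rose by 1.18. PRDX3 fell by 1.35, although its second probe set was higher by 0.45.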
